A study of Mus musculus with 6 samples.

Results

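The genes described here encode the scaffold proteins and kinases of the c-Jun N-terminal kinase (JNK) module, measured in N18 mouse neuroblastoma cells after silencing of Rest. They were the 9 genes Mapk8ip1, Mapk8ip2 and Mapk8ip3 (the JIP scaffolds), Map3k12, Map2k4 and Map2k7 (upstream kinases) and Mapk8, Mapk9 and Mapk10 (the JNKs themselves). Every spot that the platform annotation assigned to one of these symbols was taken. This gave 22 of the 44290 spots, for 8 of the 19019 genes with a tested spot. No spot of the annotation used carried the symbol Map2k7, so that kinase was not analysed here. The label holds by construction, because membership rests on gene symbols and not on a measured value.

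Cells of the N18 line were transfected either with an siRNA against Nrsf, the older name of Rest, or with a scrambled siRNA as the control. The design comprised 6 arrays with 2 colours, each carrying RNA of both conditions. The siRNA sample was in Cy5 on arrays 1 to 3 and in Cy3 on arrays 4 to 6. The series' design text names an overexpression experiment and human genes, at odds with the sample names and channel labels, which were followed here. No other allele, agent or time point is named in the labels, and all samples come from 1 line, so the results describe that line. A value here is the log2 ratio of the siRNA to the scrambled channel. No log base was stated and log2 was taken, so every fold below rests on that reading. The direction is likely from the labels but not stated, so a reversed ratio would turn each rise below into a fall.

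JNK signalling is a kinase cascade in which a MAP3K activates the MAP2Ks MKK4 and MKK7, and these phosphorylate a JNK on a threonine and a tyrosine. JIP scaffolds hold the successive kinases together, and in neurons they also link the module and its cargo to the motor protein kinesin. The pathway is known for axon growth, injury signalling and apoptosis of neurons. Rest is a zinc finger repressor that binds a long DNA element called RE1 and keeps many neuronal genes low in other cells, and Mapk8ip1 is a known target of it.

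Sequence is shown for the promoters of the 3 members whose call depended on array 1 and of the member that held a binding motif of JUN. RefSeq (GRCm38.p6) gave 13 promoter windows for 8 of the 9 genes, and Mapk8ip1 was not among them. Map3k12 has 2 windows, of which the one at the outer start is shown. The other, at chr15:102510701-102510950, holds 2 GC boxes and no octamer. Mapk10 also has another window, at chr5:103058393-103058642, which holds neither motif and is not shown. Each sequence below covers the 250 bases before an annotated transcript start and reads 5′ to 3′ towards it. Capitals mark the GC box GGGCGG, read on either strand, and the octamer TGACGTCA, a palindrome that JUN and ATF2 dimers are known to bind.
Mapk8ip2, chr15:89453661-89453910, plus strand: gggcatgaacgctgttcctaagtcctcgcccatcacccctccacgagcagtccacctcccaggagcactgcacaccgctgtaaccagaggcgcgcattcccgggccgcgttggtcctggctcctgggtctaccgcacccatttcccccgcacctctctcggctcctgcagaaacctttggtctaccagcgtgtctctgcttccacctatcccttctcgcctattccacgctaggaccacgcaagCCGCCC
Mapk8ip3, chr17:24936978-24937227, minus strand: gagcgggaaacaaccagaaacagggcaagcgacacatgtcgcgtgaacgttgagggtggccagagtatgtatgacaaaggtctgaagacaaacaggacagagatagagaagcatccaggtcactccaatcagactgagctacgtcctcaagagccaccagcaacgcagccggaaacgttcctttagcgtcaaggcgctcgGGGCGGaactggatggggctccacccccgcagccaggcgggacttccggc
Map3k12, chr15:102517005-102517254, minus strand: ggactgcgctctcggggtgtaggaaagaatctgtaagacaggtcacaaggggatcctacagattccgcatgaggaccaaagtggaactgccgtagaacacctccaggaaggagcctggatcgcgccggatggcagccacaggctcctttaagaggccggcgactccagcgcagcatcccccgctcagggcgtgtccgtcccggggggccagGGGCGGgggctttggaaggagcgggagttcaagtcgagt
Mapk10, chr5:103211335-103211584, minus strand: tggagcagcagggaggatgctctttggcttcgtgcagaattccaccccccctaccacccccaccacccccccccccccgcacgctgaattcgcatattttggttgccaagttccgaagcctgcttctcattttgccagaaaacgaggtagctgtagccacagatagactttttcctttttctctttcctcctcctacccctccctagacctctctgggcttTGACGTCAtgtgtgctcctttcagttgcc
The GC box was present in 6 of the 13 member windows and in 32.7% of all 32851 RefSeq windows of that length. The octamer was present in 1 member window, that of Mapk10 shown here, and in 1.55% of all windows. The left and right parts of the RE1 element were searched as TTCAGCACC and GGACAGC on both strands. Neither run of letters was found in any member window, against 0.301% and 5.28% of all windows. The letters are a description of these windows and no binding was measured.

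Rest itself was examined first. Its per-gene log2 ratio was -0.16 on array 1, and -0.34, -0.33, -0.27, -0.50 and -0.49 on arrays 2 to 6. All 6 arrays lay below 0, and the mean was -0.35 ± 0.13 (SD, n = 6; adjusted p = 0.00353 in limma), or 78.5% of the scrambled level (1.27-fold higher with siRNA if the ratio ran in reverse). Its 3 spots disagreed. The AK011349 spot and 1 NM_011263 spot fell, with means of -0.55 ± 0.09 and -0.44 ± 0.15, while the other NM_011263 spot was at -0.05 ± 0.19, on both sides of 0 and not called. With that spot alone, the first in file order, Rest was not called (adjusted p = 0.742 in limma), and neither was its per-gene mean on the 3 Cy5 arrays alone (-0.28, adjusted p = 0.204 in limma). In a bulk sample, a smaller share of transfected cells and a weaker loss in each cell cannot be told apart. Array 1 stood apart from the others. Its correlation with them over genes was 0.29 to 0.37, while arrays 2 to 6 correlated at 0.54 to 0.82 among themselves, and its 5th percentile of genes was -0.53 against -0.26 to -0.21. Results are therefore given with and without it. Ratios carry no level, so the identity of the line could not be checked against marker levels. Of 7 measured neuroblastoma markers, 3 were called higher and 1 lower, and none of 8 glial, mesenchymal or immune markers was called, with mean log2 ratios between -0.03 and 0.03. Over all genes, 5.88% were called higher and 9.11% lower, and 0 of 8 cannot be set apart from those shares.

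Mapk8ip1 rose in siRNA-treated cells, and it was the 1 member of the 8 that passed the test on all arrays. It encodes JIP1, a scaffold that binds JNK, MKK7 and mixed-lineage kinases and also the kinesin light chain. Its per-gene log2 ratio was 0.40 on array 1, 0.32 on array 2, 0.23 on array 3, 0.24 on array 4, 0.34 on array 5 and 0.21 on array 6. All 6 arrays lay above 0 and within 0.18 log2 units of each other. The mean was 0.29 ± 0.07 (SD, n = 6), a 1.22-fold higher level with a 95% interval of 1.16 to 1.28 and an adjusted p of 0.00237 in limma. For scale, 15.0% of all genes were called in either direction, 5.88% higher and 9.11% lower, 6.30% were above 0 on all 6 arrays, and 2.83% of all genes had a mean ratio at or above that of Mapk8ip1. With the ratio turned, Mapk8ip1 would be 1.22-fold lower and that share would count the genes at or below it. Being called is thus not rare in this comparison, and 1 of 8 members is close to the background of 15.0%.

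Both spots of Mapk8ip1 rose, although not by equal amounts. The spot listed for NM_011162 had log2 ratios of 0.695, 0.33, 0.29, 0.26, 0.48 and 0.27 on arrays 1 to 6, with a mean of 0.39 ± 0.17 (SD, n = 6; adjusted p = 0.00908 over all spots in limma). The spot listed for the cDNA AK053819 had 0.10, 0.31, 0.17, 0.23, 0.20 and 0.16, with a mean of 0.19 ± 0.07 (adjusted p = 0.0110). Neither spot was at or below 0 on any array, and array 1 was the highest for the first spot and the lowest for the second. Leaving out array 5 took the call from both (adjusted p = 0.0521 and 0.0613 in limma), and leaving out array 4 took it from the second (0.0531), although the per-gene mean was called in all 6 cases. Positive values on all 6 arrays occurred in 5.06% of all spots, and 4.21% of all spots were called higher.

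The rise of Mapk8ip1 was similar in both dye orientations. Arrays 1 to 3, with siRNA in Cy5, gave 0.31 ± 0.08 (SD, n = 3), arrays 4 to 6 gave 0.26 ± 0.07 (SD, n = 3), and the difference of 0.05 had an adjusted p of 0.805 in limma. For this dye term 0 of the 19019 genes passed, so the adjusted p alone cannot show that the orientations were alike. Without array 1 the mean was 0.27 ± 0.06 (SD, n = 5; adjusted p = 0.000206 in limma). The call was lost on the 3 Cy5 arrays alone, where 0 genes were called higher (adjusted p = 0.154 in limma for Mapk8ip1).

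**Figure D1:**
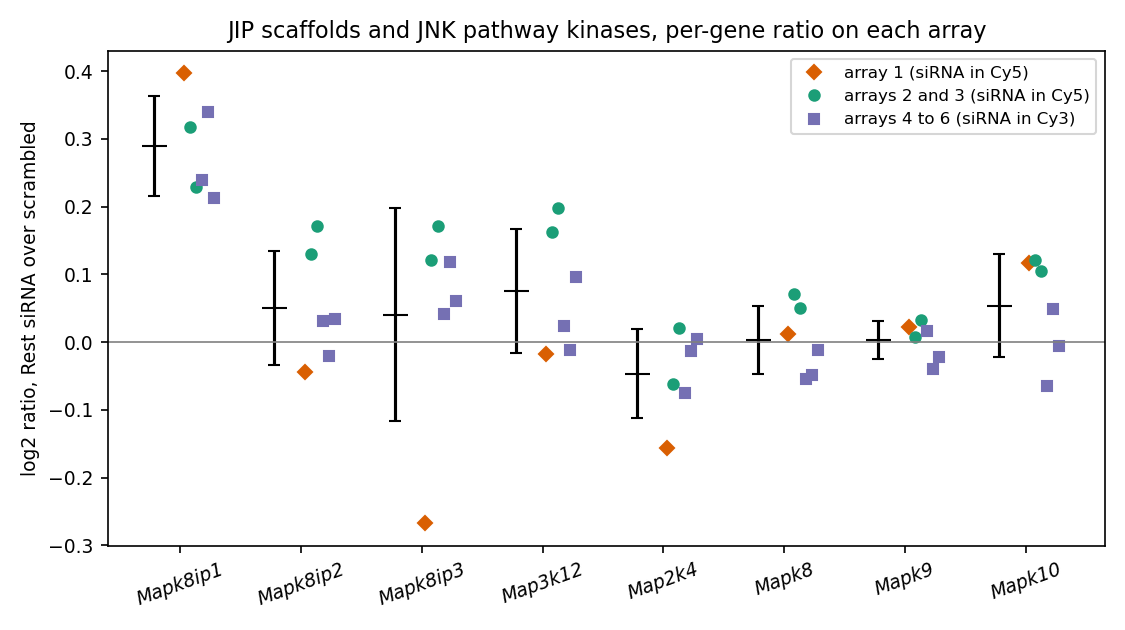
Per-gene log2 ratio of siRNA over scrambled on each of the 6 arrays for the 8 measured members, with the mean and SD over arrays as black bars. Mapk8ip1 lies above the other 7 members on every array, and array 1 lies apart for Mapk8ip3.

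On every array the ratio of Mapk8ip1 exceeded that of each other member. The closest approach was on array 3, where Mapk8ip1 was at 0.23 and Map3k12 at 0.20. Averaged over arrays, the difference between Mapk8ip1 and another member was smallest for Map3k12, at 0.21 ± 0.15 log2 units (SD, n = 6), and largest for Map2k4, at 0.34 ± 0.13. These differences between members are descriptions and were not tested.

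Mapk8ip2 encodes JIP2, a close relative of JIP1 that is found mostly in brain. Its single spot had log2 ratios of -0.04 on array 1, 0.13 on array 2, 0.17 on array 3, 0.03 on array 4, -0.02 on array 5 and 0.03 on array 6. Arrays 2 and 3 were high and the other 4 lay near 0. The mean was 0.05 ± 0.08 (SD, n = 6; adjusted p = 0.426 in limma), and the 95% interval of the fold ran from 0.982 to 1.09. A rise as large as that of Mapk8ip1 lies outside this interval.

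Mapk8ip3 encodes JIP3, a coiled-coil scaffold unrelated in sequence to JIP1 that is known for axonal transport. Its per-gene log2 ratio was -0.27 on array 1 and 0.12, 0.17, 0.04, 0.12 and 0.06 on arrays 2 to 6. The mean over all arrays was 0.04 ± 0.16 (SD, n = 6; adjusted p = 0.765 in limma), with array 1 alone below 0. The spread came from 1 spot. The spot listed for NM_013931 was at -0.54 on array 1 and at 0.29, 0.44, 0.11, 0.22 and 0.12 on the other arrays, whereas the spot listed for AK035619 stayed between -0.10 and 0.02 on all 6 arrays. The 2 spots thus gave different pictures of this gene.

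Map3k12 encodes the dual leucine zipper kinase DLK, a MAP3K that binds JIP1 and signals axon injury. Its per-gene log2 ratio was -0.02 on array 1 and 0.16, 0.20, 0.02, -0.01 and 0.10 on arrays 2 to 6. The mean was 0.08 ± 0.09 (SD, n = 6; adjusted p = 0.231 in limma). As for Mapk8ip2, arrays 2 and 3 were the highest. Of its 3 spots, those listed for NM_009582 had means of 0.11 ± 0.23 and 0.10 ± 0.13, and the spot for U09541 had 0.02 ± 0.10. The first of these was at 0.31 and 0.46 on arrays 2 and 3 and between -0.14 and 0.05 elsewhere, and the second was highest on array 6, at 0.35.

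Map2k4 encodes MKK4, which activates both JNK and p38 kinases. It had the lowest mean of the members, -0.05 ± 0.07 (SD, n = 6; adjusted p = 0.401 in limma), with values of -0.16, -0.06, 0.02, -0.08, -0.01 and 0.005 on arrays 1 to 6. Array 1 was the lowest, and the 95% interval of the fold was 0.924 to 1.015. Its spot for NM_009157 ranged from -0.14 to 0.03 on arrays 2 to 6, below which array 1 stood at -0.32, and its spot for AK048266 ranged from -0.16 to 0.05.

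None of the JNK genes was called. Mapk8 encodes JNK1 and Mapk9 encodes JNK2, which most tissues express, while Mapk10 encodes JNK3, known to be largely neuronal. The mean log2 ratio of Mapk8 was 0.003 ± 0.05 (SD, n = 6; adjusted p = 0.955 in limma) and that of Mapk9 was 0.003 ± 0.03 (adjusted p = 0.952 in limma). Their per-gene values ranged from -0.05 to 0.07 and from -0.04 to 0.03, on both sides of 0. The 95% intervals of the fold were 0.970 to 1.04 for Mapk8 and 0.971 to 1.03 for Mapk9. Mapk10 was at 0.12, 0.12, 0.10, -0.06, 0.05 and -0.01 on arrays 1 to 6, with a mean of 0.05 ± 0.08 (adjusted p = 0.186 in limma). Its 3 Cy5 arrays all lay above its 3 Cy3 arrays, with means of 0.11 ± 0.01 and -0.01 ± 0.06 (SD, n = 3 each). This dye difference had an unadjusted p of 0.0302 and an adjusted p of 0.514 in limma, where 0 of the 19019 genes passed for the dye term.

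The spots of the JNK genes pointed in different directions. Of the 4 spots of Mapk10, those listed for the reference transcript NM_009158 had means of 0.16 ± 0.17 (adjusted p = 0.101 in limma) and 0.10 ± 0.05 (adjusted p = 0.0532 in limma), the second with all 6 arrays above 0, between 0.03 and 0.16. Without the dye term this second spot passed (adjusted p = 0.0430 in limma). The cDNA spots AK082242 and AK076990 were at 0.003 ± 0.05 and -0.05 ± 0.16. The 3 spots of Mapk9 had means of 0.08, -0.02 and -0.05, and the first and last of these are listed for the same transcript, NM_016961. That first spot was at 0.22, 0.16 and 0.11 on the Cy3 arrays and between -0.025 and 0.033 on the Cy5 arrays, while the last was at -0.139, -0.093 and -0.055 on the Cy3 arrays. The 5 spots of Mapk8 had means from -0.05 to 0.08, and the one for AK163829 was above 0 on arrays 2 and 3 alone.

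**Figure D2:**
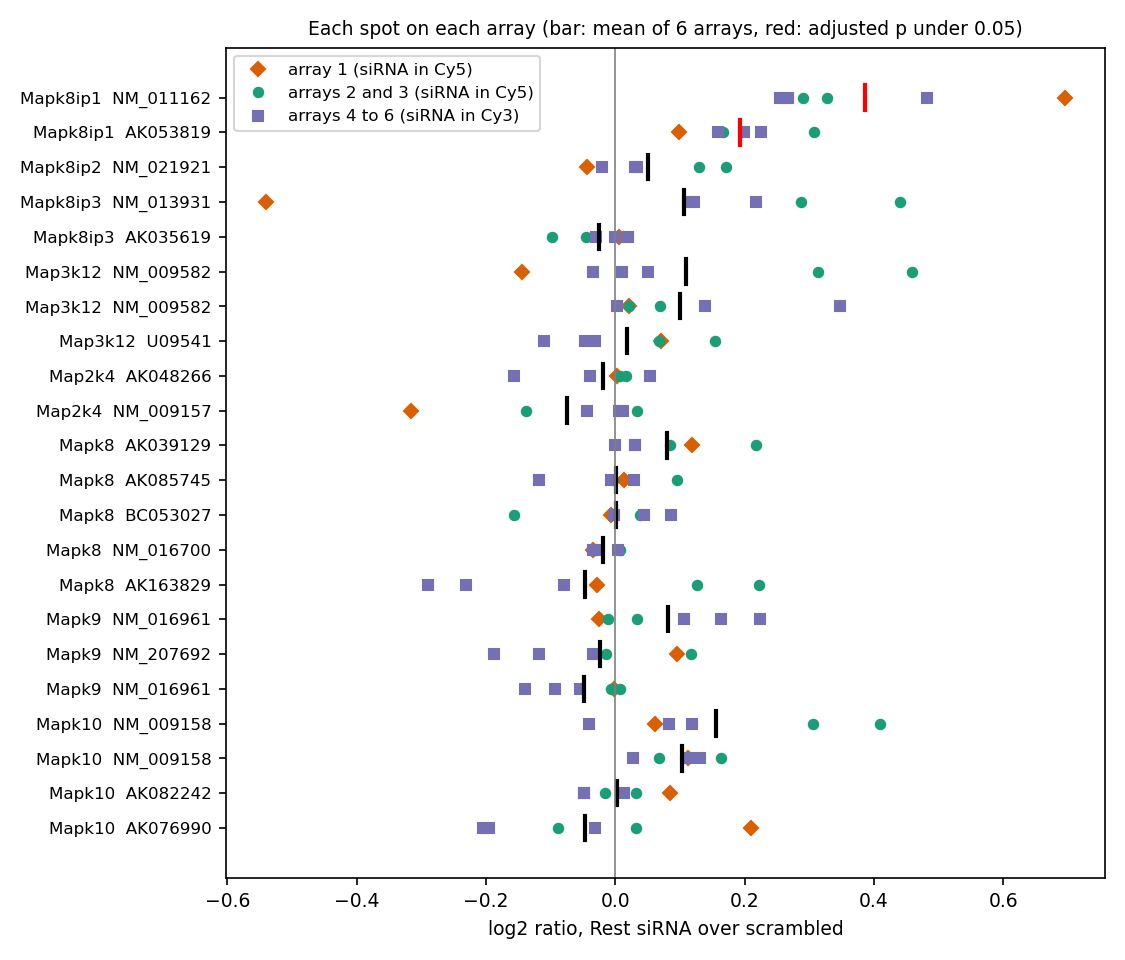
Log2 ratio of siRNA over scrambled for each of the 22 member spots on each array, labelled by gene and by the transcript the spot is listed for. Bars mark the mean of 6 arrays, red where called, which holds for the 2 spots of Mapk8ip1.

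Over all members, 1 of 8 genes was called higher and 0 lower in limma, beside 15.0% of all genes called. An unadjusted p under 0.05 in limma was found for 2 of the 8, and for 4894 of all 19019 genes. Of the 22 spots, 2 were called higher and 0 lower, beside 11.1% of all spots called in either direction and 6.85% called lower. Unadjusted, 6 spots had a p under 0.05 in limma. The share over all spots was not taken for that threshold, so this count is no result about the members. The 20 spots of members other than Mapk8ip1 had means between -0.07 and 0.16. The median of the 8 members was 0.05 on the log2 scale, against 0.0025 over all genes. No member and no member spot was called for its dye term (in limma, 0 of the 19019 genes and 0.558% of all spots were).

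Without array 1 the per-gene means of the scaffolds and DLK were called, and those of the downstream kinases were not. Then 4 of the 8 members were called higher and 0 lower, beside 25.9% of all genes called, 13.7% higher and 12.2% lower. The mean log2 ratio of Mapk8ip3 was 0.11 ± 0.05 (SD, n = 5; adjusted p = 0.00922 in limma), a 1.08-fold rise. Map3k12 was at 0.11 ± 0.09 (adjusted p = 0.0122 in limma) and Mapk8ip2 at 0.08 ± 0.08 (adjusted p = 0.0274 in limma), each above 0 on 4 of these 5 arrays. Together with Mapk8ip1 these were the 3 JIP genes and the MAP3K. Map2k4, Mapk8, Mapk9 and Mapk10 had means of -0.02, 0.01, 0.003 and 0.05 and were not called, with adjusted p-values from 0.181 to 0.954 in limma. The difference between the called and the uncalled members was not tested. The calls rested on few spots. The single spot of Mapk8ip2 was not called in the fit over all spots on the same 5 values (adjusted p = 0.0639 in limma), and for Mapk8ip3 and Map3k12 a single spot each was called, with the AK035619 spot of Mapk8ip3 at -0.04. At the spot level 6 of 22 were then called higher, beside 9.89% of all spots. They were both spots of Mapk8ip1, the NM_013931 spot of Mapk8ip3 (0.26 ± 0.14), 1 NM_009582 spot of Map3k12 (0.20 ± 0.22) and both NM_009158 spots of Mapk10 (0.21 ± 0.18 and 0.10 ± 0.05). Whether array 1 or the other arrays give the better value for these genes was not tested.

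**Figure D3:**
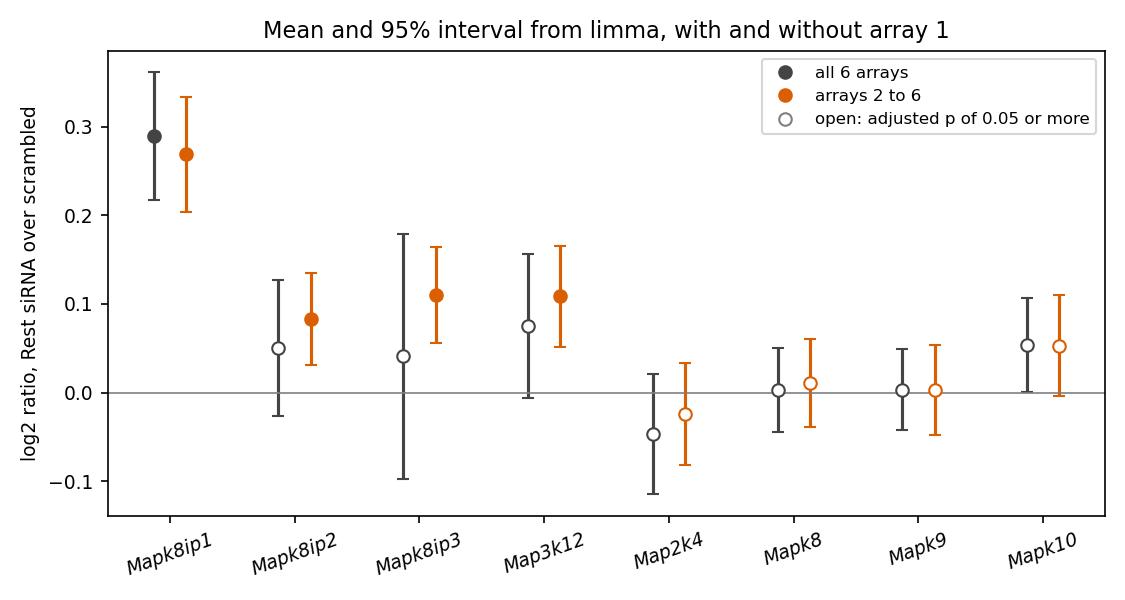
Mean log2 ratio and 95% interval from limma for the 8 members with all 6 arrays (grey) and with arrays 2 to 6 (orange), filled where called. Mapk8ip1 is filled in both, and Mapk8ip2, Mapk8ip3 and Map3k12 are filled without array 1.

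The genes whose ratios were most like those of Mapk8ip1 over the 6 arrays were found by Euclidean distance to 19018 genes. RIKEN clones, predicted genes and accession-like symbols were then skipped, so the order below holds among the symbols kept. The nearest was Niban2, at 0.48, 0.23, 0.25, 0.25, 0.40 and 0.20 on arrays 1 to 6 and a distance of 0.136 log2 units, followed by Akap11 (0.170), Hdhd3 (0.202), Fcgrt (0.210) and Pdlim2 (0.226). Niban2, like Mapk8ip1, was highest on array 1 and next highest on array 5. The 5 genes had mean log2 ratios between 0.22 and 0.30.

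Genes around the module were followed in 7 lists, of which 89 of 100 genes were measured. Of these, 19 rose and 6 fell, or 28.1%, beside 15.0% of all genes, and their median log2 ratio was 0.006 against 0.0025 over all genes. The lists were chosen with earlier results of these data known, so this share and the list shares below cannot be read as an excess. The counts moved with single arrays: 31 rose without array 1, and 8, 10, 11, 3 and 4 rose without arrays 2 to 6 in turn. The background moved alongside: 13.7%, 3.02%, 3.14%, 2.91%, 1.73% and 2.02% of all genes rose without arrays 1 to 6 in turn, against 34.8%, 8.99%, 11.2%, 12.4%, 3.37% and 4.49% of the list genes. Likewise 8 fell without array 1, 5 without array 3, and 3 without array 2, 4, 5 or 6, beside 12.2%, 6.51%, 7.42%, 5.3%, 4.14% and 4.37% of all genes for arrays 1 to 6 in turn. Of the 25 called genes, 6 were called whichever single array was left out, namely Map3k6, Map4k4, Nfkbia, Kif5b, Kif5c and Mapk11.

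Among the upstream MAP3Ks and their adaptors, 3 of 14 rose and 0 fell (21.4% called, beside 15.0% of all genes), with a list median of 0.04. Tab2, an adaptor of the MAP3K TAK1, was at 0.29 ± 0.16 (SD, n = 6; adjusted p = 0.0227 in limma), and lost its call without any one of arrays 2 to 6. Its spots were at 0.43 and 0.15, the latter not called (adjusted p = 0.155 over all spots in limma). Map3k6, which encodes the stress kinase ASK2, was at 0.19 ± 0.07, with its 2 spots at 0.18 and 0.20. Taok1, a MAP3K of the TAO family, was at 0.16 ± 0.07, with 4 spots from 0.02 to 0.40, and lost its call without array 4, 5 or 6. The count was 6 without array 1, 2 without array 2 or 3 and 1 without array 4, 5 or 6. Of 8 measured MAP4Ks and small GTPase pathway genes, 2 rose and 1 fell (37.5% called). Map4k4 fell on 6 of 6 arrays, with a mean of -0.29 ± 0.05, and 2 of its 3 spots were at -0.49 and -0.39 while the other was at 0.01. Map4k1, a kinase best known from blood cells, was at 0.46 ± 0.25 and Map4k5 at 0.13 ± 0.06, the latter through 1 of 3 spots (0.40, against -0.03 and 0.01). Map4k1 lost its call without array 5 or 6, and Map4k5 without any one of arrays 2 to 6. In that list 3 rose without array 1, 1 rose without array 2, 3 or 4, and 0 rose without array 5 or 6.

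No other JNK scaffold was called on the per-gene means of all arrays. Of 9 measured, 0 passed in limma, beside 15.0% of all genes. A list of 9 is too short to set 0 apart from that share. Beside 4894 of all 19019 genes, 1 of the 9 had an unadjusted p under 0.05 in limma. That was Spag9, which encodes JIP4, the relative of JIP3, at -0.06 ± 0.03 (SD, n = 6; adjusted p = 0.101 in limma). Spag9 did pass as lower with array weights (adjusted p = 0.0495 in limma) and with the first spot per gene (-0.27, adjusted p = 0.00880 in limma), and in the unmoderated test (adjusted p = 0.0381 from the limma fit without moderation). Its spots disagreed, with 2 NM_027569 spots called lower at -0.27 and -0.22 (adjusted p = 0.00877 and 0.0360 in limma), another at 0.26 and the cDNA spot at 0.005. The list median was -0.03.

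Among JNK substrates and the transcription factors downstream, 6 of 18 rose and 0 fell (33.3% called, beside 15.0% of all genes), with a list median of 0.05. Jun, the transcription factor that gave the kinase its name, had log2 ratios of 0.01 on array 1 and 0.82, 0.82, 0.46, 0.71 and 0.75 on arrays 2 to 6. Its mean was 0.60 ± 0.32 (SD, n = 6; adjusted p = 0.0164 in limma), a 1.51-fold rise on 1 spot. Jund, its relative, ranged from 0.51 to 0.81 on arrays 2 to 6 but stood at -0.26 on array 1, with a mean of 0.50 ± 0.39 (adjusted p = 0.0240 in limma). Both were thus high on 5 arrays and near or below 0 on array 1. The microtubule-associated proteins Mapt (tau) and Map2, substrates in axons and dendrites, were at 0.22 ± 0.10 and 0.16 ± 0.10. The Mapt spots at 0.32 and 0.27 were called, and the one at 0.05 was not. Of the Map2 spots only that at 0.31 was called, against 0.10 and 0.06 (adjusted p = 0.622 and 0.377 over all spots in limma). Without array 1, 9 genes of this list rose, and without arrays 2 to 6 in turn 1, 2, 4, 0 and 0 did. Jun and Map2 lost the call without array 2, 3, 5 or 6, Jund without any one of arrays 2 to 6, and Mapt without array 5 or 6.

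In the list of phosphatases and inhibitors of JNK, 4 of 12 rose and 1 fell (41.7% called, beside 15.0% of all genes), with a list median of 0.10. Gadd45b, whose product inhibits MKK7, rose 1.79-fold, with log2 ratios of 0.22 on array 1 and 0.98, 1.22, 0.61, 0.97 and 1.07 on arrays 2 to 6 (mean 0.84 ± 0.37, SD, n = 6; adjusted p = 0.00855 in limma). Nfkbia was at 0.47 ± 0.15, with all 6 arrays between 0.21 and 0.66. It is counted among the 4 although its product is the inhibitor of NF-kappaB and not of JNK itself. The JNK phosphatase genes Dusp8 and Dusp16 were at 0.22 ± 0.10 and 0.15 ± 0.09, and the 2 spots of Dusp8 were at 0.23 and 0.20. The spots of Dusp16 were at 0.03 and 0.26, and neither was called (adjusted p = 0.824 and 0.0794 over all spots in limma). Gadd45b lost its call without array 5, Dusp8 without array 2, 5 or 6, and Dusp16 without any one of arrays 2 to 6. Without array 1, 7 rose and 2 fell. Without arrays 2 to 6 in turn 2, 3, 3, 1 and 2 rose. Dusp19, the 1 gene that fell with all arrays, was not called without array 2, 3, 4, 5 or 6. Another gene of the list was lower without array 3, and 0 were lower without array 2, 4, 5 or 6.

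Motor and cargo partners of the JIP proteins went in both directions, with 2 of 15 higher, 3 lower (33.3% called, beside 15.0% of all genes) and a list median of -0.01. Kif5b, the widely expressed kinesin-1 heavy chain, fell on 6 of 6 arrays, at -0.37, -0.47, -0.47, -0.64, -0.67 and -0.75 (mean -0.56 ± 0.15, SD, n = 6; adjusted p = 0.000190 in limma), and both of its spots fell (-0.31 and -0.81). Kif5a, a neuronal heavy chain, was at 0.38 ± 0.18, but its spots were at 0.82 and -0.05. Kif5c, another neuronal heavy chain, was at -0.23 ± 0.06, through 1 of 3 spots (-0.64, against -0.08 and 0.008). Aplp1, a relative of the amyloid precursor, was at 0.28 ± 0.18. Klc1, a kinesin light chain that JIP1 binds, was the other gene that fell, at -0.15 ± 0.08. Its spots were at -0.24 and -0.07, the latter not called (adjusted p = 0.385 over all spots in limma). The call was lost for Kif5a without array 5 or 6, for Klc1 without array 2, 4, 5 or 6, and for Aplp1 without any one of arrays 2 to 6. Without array 1, 4 genes were higher, without array 2, 3 or 4, 1 was, and without array 5 or 6, 0 were.

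In the parallel ERK and p38 modules 2 of 13 measured genes rose and 1 fell (23.1% called, beside 15.0% of all genes), with a list median of -0.008. The p38 kinases split. Mapk11 (p38 beta) was at 0.34 ± 0.15 (SD, n = 6; adjusted p = 0.00456 in limma) and Mapk12 (p38 gamma) at 0.31 ± 0.29, whereas Mapk14 (p38 alpha) was at -0.27 ± 0.18. Mapk13, the other p38 gene, was at 0.11 ± 0.16 and was not called (adjusted p = 0.320 in limma). Mapk11 and Mapk14 each rested on 1 spot. Mapk12 was at -0.22 on array 1, and its mean was 0.10 on the Cy5 arrays against 0.51 on the Cy3 arrays. Mapk12 and Mapk14 each lost the call without any one of arrays 2 to 6, which left 1 gene higher and 0 lower, and without array 1 there were 2 higher and 2 lower.

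**Figure D4:**
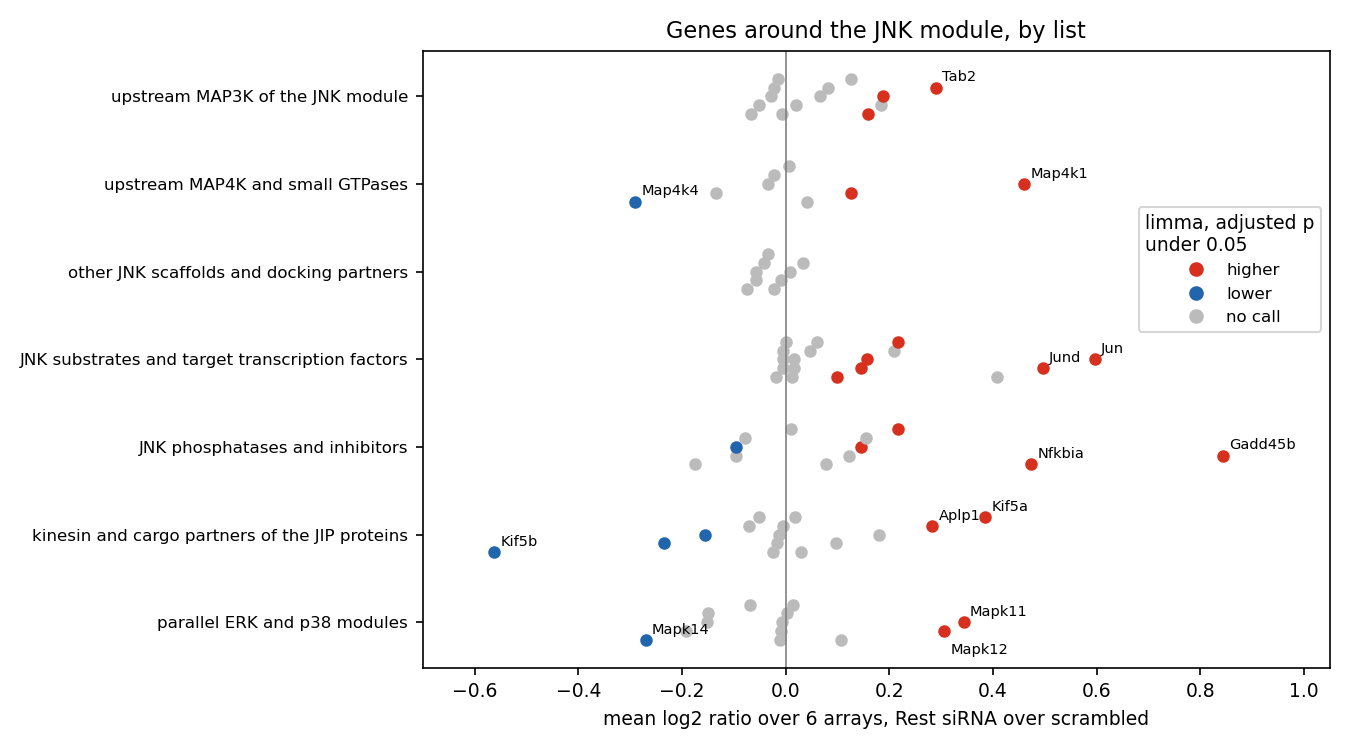
Mean log2 ratio over 6 arrays of the 89 measured genes in the 7 lists, 1 point per gene, coloured by the limma call, with names for called genes past 0.25 in either direction. Vertical offsets within a list only separate the points. Gadd45b and Jun lie farthest to the right and Kif5b farthest to the left.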

How the data were processed

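Per the labels' protocols, Trizol was used for total RNA and an Agilent linear amplification kit for labelling. The authors deposited 1 log ratio per spot and array, already normalized by steps not given in the sources used here, with no base stated. These deposited values were read as log2, which the values do not settle. In 25 unnamed spots the difference between dye orientations (Cy5 minus Cy3 arrays, divided by 2) was over 3, the bound used to pick them. Their median was 3.18, a ratio of 9.08 on a log2 scale and 24.1 on a natural log scale. The bound partly sets this median and no expected ratio is given here, so a natural log is not excluded. Named spots correlated at 0.73 between orientations, so signs were left as deposited. Precision is limited by the number of arrays.

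Spots with 1 gene symbol (32042) and a value on all 6 arrays were averaged per gene, with symbols updated through gene identifiers. R 4.3.3 and limma 3.58.1 (lmFit, eBayes) fitted the mean ratio and a dye term, with 4 residual degrees of freedom and Benjamini-Hochberg adjustment over all 19019 genes or all 43530 spots at a threshold of 0.05. Whether the 6 samples came from separate cultures is not stated, so the p-values reflect the spread of these samples, which may be technical. The fit was tested on simulated data. Members and lists were chosen with earlier results of these data known. Genes named were the members, Rest, up to 4 called members per list with the largest change (or the smallest p), and the 5 genes nearest to Mapk8ip1. RIKEN clones, predicted genes and accession-like symbols were skipped for the latter. Further genes were named after their values were seen. Alternatives covered the dye term, spot summary, array scaling, weights, moderation, the filter and leaving out arrays. Map2k7 was not analysed here.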

Additional observations from a re-analysis of the deposited data

Results flagged for a closer look

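In 4 of 53 sets of 6 array values (the members, Rest, the named list genes and every member spot), 1 array stood apart from the rest by Dixon's criterion, and chance gives about 1 in 20. All 4 were array 1, and a gene and its own spot are not separate evidence. The per-gene log2 ratio of Mapk8ip3 was -0.27 there, with the nearest other array at 0.04, and its NM_013931 spot was at -0.54 against 0.11. Jund was at -0.26 against 0.51, and Map4k1 at -0.036 against 0.476.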

How the results depend on the processing

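Mapk8ip1 kept its direction in all 17 alternatives, with means from 0.26 to 0.39 and adjusted p-values in limma from 0.000206 to 0.154, and passed in 16. It missed on the Cy5 arrays alone (0.31). With an array left out in turn it lay between 0.27 and 0.31. Calls appeared with array weights for Mapk8ip2 (0.074) and Map3k12 (0.10), and without array 1 for these and Mapk8ip3. With an array left out in turn, Mapk8ip2 ranged from 0.029 to 0.0828, Mapk8ip3 from 0.000167 to 0.11 and Map3k12 from 0.0544 to 0.108. The per-gene means of Map2k4, Mapk8, Mapk9 and Mapk10 were called in none of the 17, and the near-zero means of Mapk8, Mapk9 and Mapk10 changed sign in some. Single spots did pass in some spot-level alternatives. These were 1 NM_016961 spot of Mapk9 (lowest adjusted p = 0.0486 in limma) and both NM_009158 spots of Mapk10 (lowest 0.0278 and 0.00170 in limma). Over all genes 1119 were higher and 1733 lower, against 2389 higher with array weights, 193 higher and 677 lower with the unmoderated test, 0 and 9 on the Cy5 arrays, 2045 higher on the Cy3 arrays, and 329 to 2605 higher and 788 to 2318 lower with an array left out. Of the list genes, 29 were higher with array weights, 2 with the unmoderated test, 0 higher and 0 lower on the Cy5 arrays, 11 lower on the Cy3 arrays, and 3 to 31 higher and 3 to 8 lower with an array left out. Among the named genes Map4k5 reversed, to -0.026 with the first spot per gene. With that spot Rest (-0.05), Taok1 (0.02), Map2 (0.10), Dusp16 (0.03) and Kif5c (-0.08) also lost their calls, and with the median over spots Map4k5 (0.04), Map2 (0.14) and Kif5c (-0.11) did. The unmoderated test ended the calls of 16 named list genes and made that of Spag9. The first and median settings use fewer or other spots of each gene. Mapk12 lost its call without the dye term (0.31, adjusted p = 0.0838 in limma). The cause of the other shifts was not tested. Each array already sets both conditions against each other, so the fitted mean ratio is itself a paired comparison within arrays. No further pairing between arrays was possible, since no replicate number recurs. Ratios do not show which spots were near background.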
